A study of Mus musculus with 24 samples.

Results

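Chromatin accessibility was compared between Daxx-KO and Daxx-WT common myeloid progenitors (CMPs) from mouse bone marrow, as 1 ATAC-seq peak list per genotype. ATAC-seq marks open chromatin by the insertion of a transposase, and a peak is a stretch where insertions pile up. The members were every peak of the 2 CMP lists, 66070 in Daxx-WT and 50590 in Daxx-KO, together 116660 of the 526847 peaks in the 10 lists used here. A peak was called shared when at least 1 bp of it was covered by a peak of the other genotype, and otherwise alone. The 2 lists rest on 4 of the series' 24 libraries, 2 per genotype.

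CMPs are bone marrow progenitors that give rise to the megakaryocyte and erythroid lineages on one side and, through granulocyte-macrophage progenitors (GMPs), to granulocytes and monocytes on the other. They descend from long-term haematopoietic stem cells (LT-HSCs), and the change from one population to the next is accompanied by the opening and closing of enhancers bound by Pu.1, GATA, C/EBP and RUNX factors. Daxx is a chaperone that places the histone variant H3.3 on chromatin, with Atrx at repeats and silenced regions.

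The Daxx-KO mice were Daxx F/F and the Daxx-WT mice Daxx +/+. Both groups were C57BL/6 RosaCreERT2 animals, so the controls carried the Cre transgene too, which the Rosa26 promoter expresses in all tissues and tamoxifen activates. Exons 2 to 7 of Daxx lie between the loxP sites. The labels name no Cre line. Per the study's methods the cells were taken 3 weeks after tamoxifen given by mouth, and the labels give no time for these libraries. CMPs were sorted as c-Kit+ CD34+ cells that lacked lineage markers, Sca-1 and CD16/32 and carried CD45.2. Since the Cre acts in all tissues, deletion was not limited to these cells. The LT-HSC lists labelled 3 d.p.i. come from mice injected with tamoxifen, and the study describes its steady-state KLS cells as taken from Mx1Cre mice given pI:pC, so these lists differ in induction or Cre line from those of CMPs.

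Each list gives the positions of peaks and no height, count or library of origin. The depth behind a peak is therefore unknown, no value per library exists, and no difference between the genotypes could be tested. Intervals are 95% Wilson intervals. They cover counting error only, since peaks of 1 list share their cells and are not replicates.

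The alleles could be checked at Daxx itself. The peak over the Daxx start site (chr17, exon 1 at 33909445 to 33909598, GRCm38/mm10, plus strand) was shared, but it ended at 33910328 in Daxx-WT CMPs and at 33909980 in Daxx-KO CMPs, both in intron 1, ahead of exon 2, which starts at 33910431. The 5 Daxx-WT lists ended this peak between 33910299 and 33910328, and the 5 Daxx-KO lists between 33909963 and 33910037. The lists thus separated by genotype at the floxed gene without overlap.

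Sort markers were checked at their start sites. Kit, Cd34, Fcgr3, Fcgr2b and Ptprc, which encode antigens of the gate, had a start-site peak in both lists, and so did Itgam, the lineage antigen CD11b. Ly6a, which encodes Sca-1, and Ly6g and Cd3e of the lineage panel had one in neither list. The start sites of the lineage antigen genes Itgax and Klrb1c lay under a Daxx-WT peak alone.

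The sequences below show what peaks of 1 genotype looked like at lineage genes. The first 4 lines give, for each factor named above, the central 200 bases of the Daxx-WT-alone peak nearest a start site of a lineage gene, among peaks that held the motif and whose window met no exon. The last line is a Daxx-KO-alone peak chosen in the same way for any of the 4 motifs. All are on the plus strand of GRCm38/mm10, and capitals mark the motif letters searched for, on either strand.
Klf2, Daxx-WT alone, Pu.1 motif, chr8:72317690-72317889: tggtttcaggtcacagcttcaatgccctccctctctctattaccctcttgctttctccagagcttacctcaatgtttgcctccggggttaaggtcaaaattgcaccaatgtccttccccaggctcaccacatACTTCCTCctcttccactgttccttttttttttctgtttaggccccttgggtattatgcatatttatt
Cpa3, Daxx-WT alone, GATA motif, chr3:20243979-20244178: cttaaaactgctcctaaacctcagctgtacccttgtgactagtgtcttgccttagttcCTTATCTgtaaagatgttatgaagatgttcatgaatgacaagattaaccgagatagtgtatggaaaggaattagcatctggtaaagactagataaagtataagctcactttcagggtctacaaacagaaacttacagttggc
Cd177, Daxx-WT alone, C/EBP motif, chr7:24758623-24758822: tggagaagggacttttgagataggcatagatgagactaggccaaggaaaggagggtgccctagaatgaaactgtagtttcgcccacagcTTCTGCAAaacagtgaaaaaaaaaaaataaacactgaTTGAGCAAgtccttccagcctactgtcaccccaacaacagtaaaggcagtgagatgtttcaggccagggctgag
Gzmb, Daxx-WT alone, RUNX motif, chr14:56262293-56262492: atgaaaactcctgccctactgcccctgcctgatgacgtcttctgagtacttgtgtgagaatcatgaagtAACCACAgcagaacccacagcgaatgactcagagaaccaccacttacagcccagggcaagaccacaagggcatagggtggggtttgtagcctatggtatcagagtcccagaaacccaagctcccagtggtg
Prf1, Daxx-KO alone, C/EBP motif, chr10:61297313-61297512: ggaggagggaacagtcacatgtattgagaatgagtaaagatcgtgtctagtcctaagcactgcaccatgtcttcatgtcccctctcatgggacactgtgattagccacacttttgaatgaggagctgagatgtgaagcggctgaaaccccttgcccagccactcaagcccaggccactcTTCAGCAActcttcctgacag

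The letters were GAGGAAGT for Pu.1, AGATAAG for GATA, TTGCNNAA for C/EBP and AACCACA for RUNX, each read on both strands. Of the central 200 bp of all 66070 Daxx-WT peaks, 7.39% held the Pu.1 letters, 2.93% the GATA letters, 9.56% the C/EBP letters and 8.41% the RUNX letters. None of these 4 strings contains another. The Klf2 peak, 1109 bp upstream of this gene for a Krüppel-like factor, and the Cpa3 peak, 1630 bp upstream of the mast cell carboxypeptidase gene, were both listed in GMPs of either genotype and in no LT-HSC list. The Cd177 peak, 1232 bp downstream of the start of a neutrophil surface antigen gene, showed the same presence. The Gzmb peak lay over the start site of granzyme B and was in none of the 4 LT-HSC and GMP lists. The Prf1 peak, over the start of the perforin gene, was also listed in Daxx-KO LT-HSCs and Daxx-WT GMPs.

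Far more peaks were listed in Daxx-WT CMPs alone than in Daxx-KO CMPs alone. In Daxx-WT CMPs 18832 peaks were alone, 28.5% (28.2 to 28.9%) of that list, and in Daxx-KO CMPs 3167 peaks were alone, 6.26% (6.05 to 6.48%). These shares are the background against which genes and lists are read below. GMPs gave 27.6% and 4.55% for the same comparison, whereas LT-HSCs gave 6.78% and 13.9%, with more peaks alone in Daxx-KO. The numbers of CMP peaks alone depend on the lengths of the lists: when the Daxx-WT list was shortened to 50590 peaks by keeping the widest, 10312 Daxx-WT and 10036 Daxx-KO peaks were alone. The CMP and GMP libraries, but not those of LT-HSCs, were also sequenced in a further single-read run, and the part that depth plays in the list lengths was not tested.

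Shared and alone were well separated. Only 6 of the shared Daxx-WT peaks overlapped by 50 bp or less, and the median overlap was 642 bp. Of the peaks alone, 5.46% of those in Daxx-WT and 6.32% of those in Daxx-KO had a peak of the other list within 500 bp, and the median distance to one was 7312 bp and 6073 bp. Among 46498 pairs in which 1 peak met exactly 1 other, the peak was narrower in Daxx-KO in 69.5% and wider in 29.5%, with a median difference in log2 width of -0.06.

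Peaks over start sites were mostly shared, and those farther away were more often absent from the other list. Of 15508 Daxx-WT peaks over an annotated transcript start, 9.67% (9.22 to 10.2%) were alone. The share was 32.2% among peaks up to 1000 bp away, 34.1% both at 1 to 10 kb and at 10 to 50 kb, and 41.6% (38.3 to 44.9%) beyond 100 kb. Daxx-KO peaks followed a similar order at a lower level, from 1.97% over a start site to 12.3% at 50 to 100 kb and 8.67% beyond.

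**Figure D1:**
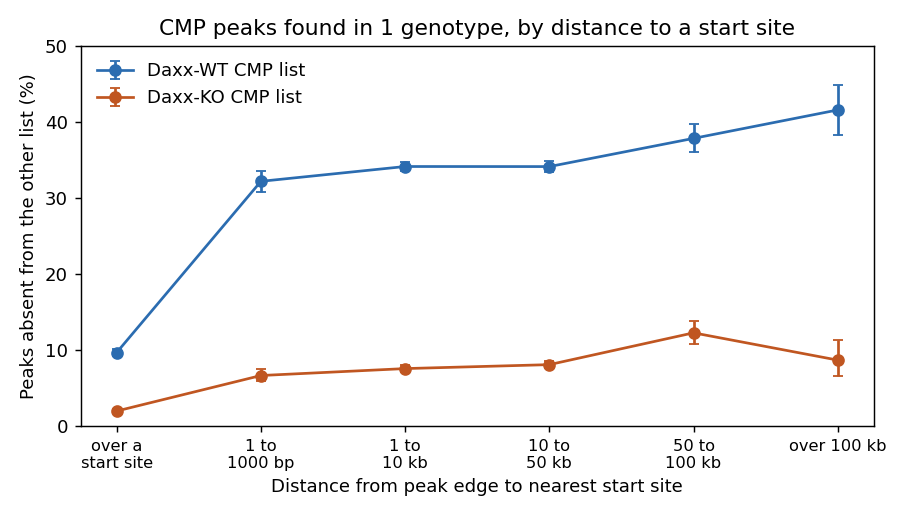
Percentage of CMP peaks absent from the other genotype's list (y axis) by distance from the peak's edge to the nearest transcript start (x axis), for the Daxx-WT list (blue) and the Daxx-KO list (orange), with 95% Wilson intervals. Daxx-WT peaks go from 9.67% over a start site to 41.6% beyond 100 kb.

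Distal peaks, more than 1000 bp from every start, were alone in 34.5% of cases in Daxx-WT and 8.07% in Daxx-KO. They made up 84.3% of the Daxx-WT-alone peaks, 83.9% of the Daxx-KO-alone peaks and 63.8% of the shared ones. Introns held 41.2% of the Daxx-WT-alone peaks against 28.8% of the shared peaks. Bases in annotated repeats were 17.8% in distal Daxx-WT-alone peaks, 17.96% in distal Daxx-KO-alone peaks and 15.7% in distal shared peaks. The GC content of the same 3 sets was 47.7%, 48.5% and 48.7%.

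Width went with all of this. The median width was 480 bp for Daxx-WT-alone peaks and 472 bp for Daxx-KO-alone peaks, against 729 bp for shared peaks of the Daxx-WT list. Among distal Daxx-WT peaks 73.6% of those up to 300 bp were alone, 32.3% of those over 500 and up to 600 bp, and 14.7% of those over 1000 bp. Peaks near start sites ran from 73.0% to 5.22% over the same range. Among peaks over 300 and up to 600 bp, a range chosen after the data were seen, distal peaks were 88.4% of the Daxx-WT-alone, 87.6% of the Daxx-KO-alone and 85.0% of the shared peaks, so most of the gap in the distal share was not seen among peaks of like width.

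The peaks alone in CMPs were then looked up in LT-HSC and GMP lists, which come from other libraries. Peaks alone in Daxx-WT were more often present in Daxx-WT GMPs than in Daxx-WT LT-HSCs, and peaks alone in Daxx-KO had the opposite order. Of the Daxx-WT-alone peaks 57.6% (56.9 to 58.3%) were in the Daxx-WT GMP list and 47.5% (46.8 to 48.2%) in the Daxx-WT LT-HSC list. Of the Daxx-KO-alone peaks 36.2% (34.5 to 37.8%) were in Daxx-WT GMPs and 54.5% (52.8 to 56.3%) in Daxx-WT LT-HSCs. Shared peaks stood at 88.9% and 83.2%.

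The Daxx-KO lists of the other populations gave the LT-HSC side again. Daxx-KO-alone CMP peaks were present in 60.6% of cases in Daxx-KO LT-HSCs and 22.0% in Daxx-KO GMPs. Daxx-WT-alone peaks were present in 51.7% and 34.6%, so with these lists both classes were found more often in LT-HSCs, and the Daxx-KO GMP list is also the shorter one, with 49677 peaks against 70455. Among peaks over 300 and up to 600 bp the difference between presence in Daxx-WT LT-HSCs and Daxx-WT GMPs was -16.2 percentage points for Daxx-WT-alone and 13.4 for Daxx-KO-alone peaks. With both CMP lists at equal length it was -7.80 and 0.51 percentage points, and among peaks wider than their list's median -0.81 and 32.1. The size of the contrast on each side thus depended on which peaks were kept.

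**Figure D2:**
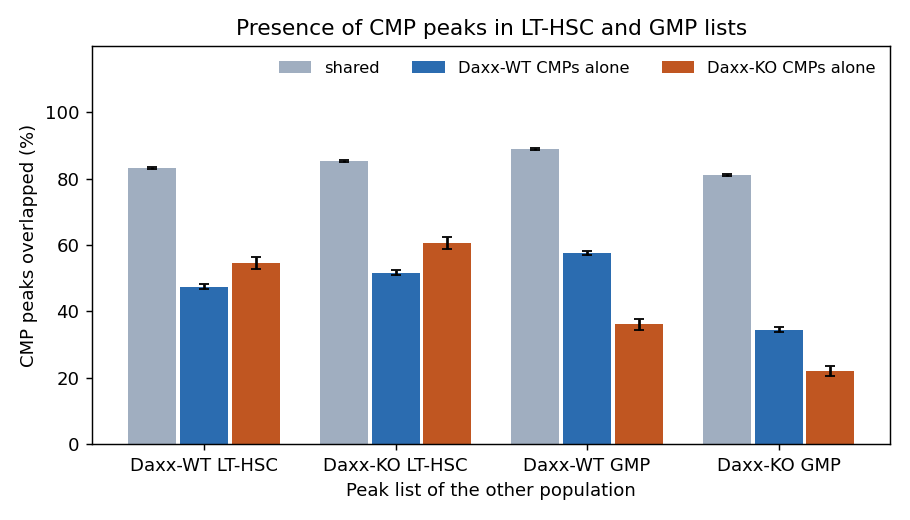
Percentage of CMP peaks (y axis) overlapped by a peak of each LT-HSC or GMP list (x axis), for shared peaks of the Daxx-WT list (grey), peaks in Daxx-WT CMPs alone (blue) and peaks in Daxx-KO CMPs alone (orange), with 95% Wilson intervals. In Daxx-WT GMPs the blue bar, 57.6%, is above the orange, 36.2%, and in both LT-HSC lists the orange is the higher of the pair.

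Sorted by their course in Daxx-WT cells, CMP peaks present in both LT-HSCs and GMPs were shared most often. Of 40074 such Daxx-WT CMP peaks 11.7% were alone. The share was 51.9% (50.8 to 53.0%) of 8151 peaks found in LT-HSCs and not GMPs, 48.0% (47.2 to 48.9%) of 12783 found in GMPs and not LT-HSCs, and 74.1% of 5062 found in neither. Daxx-KO CMP peaks differed more between the 2 one-sided courses: 21.4% (20.3 to 22.6%) of 5016 found in LT-HSCs and not GMPs were alone, against 6.90% (6.34 to 7.51%) of 7158 found in GMPs and not LT-HSCs. The median widths of these 2 sets were 544 bp and 517 bp.

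The presence of the peaks alone was also split by the genotype of the other population. Of the Daxx-WT-alone CMP peaks 44.0% were present in LT-HSCs of both genotypes and 3.49% in Daxx-WT LT-HSCs alone. A further 7.69% were in Daxx-KO LT-HSCs alone. In GMPs 31.5% were present in both genotypes and 26.1% in Daxx-WT alone, against 3.06% in Daxx-KO alone. Of the Daxx-KO-alone CMP peaks 9.22% were in Daxx-KO LT-HSCs alone, against 3.13% in Daxx-WT LT-HSCs alone. The order was reversed in GMPs, with 4.55% in Daxx-KO GMPs alone and 18.7% in Daxx-WT GMPs alone. Over all GMP peaks, 27.6% of the Daxx-WT list and 4.55% of the Daxx-KO list were alone. In none of the 4 lists were 2853 (15.1%) of the Daxx-WT-alone and 687 (21.7%) of the Daxx-KO-alone peaks.

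A height was available only in other lists, those of c-Kit+ Lin- Sca-1+ (KLS) cells 3 weeks and LT-HSCs 3 days after induction, as the peak caller's fold enrichment. Where a KLS peak of Daxx-WT mice lay on a CMP peak, its median fold enrichment was 5.97 at shared CMP peaks, 4.55 at Daxx-WT-alone and 4.75 at Daxx-KO-alone peaks, and 5.67 over the whole KLS list. In Daxx-KO KLS cells the same values were 6.84, 5.01 and 5.39. Both classes of peaks alone thus coincided with lower KLS peaks than shared ones did.

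Motif letters differed most for RUNX. Among distal peaks, the central 200 bp held AACCACA, the core recognised by Runx1 and its relatives, in 15.5% (14.1 to 16.9%) of 2656 Daxx-KO-alone peaks, 9.33% (8.89 to 9.79%) of 15869 Daxx-WT-alone peaks and 10.7% (10.4 to 11.1%) of 30148 shared peaks. The distal peaks of Daxx-WT LT-HSCs held it in 8.93% and those of Daxx-WT GMPs in 9.36%. The GATA letters AGATAAG were in 5.69% (4.87 to 6.63%) of the Daxx-KO-alone peaks and in 3.58% of each of the other 2 classes. Over all peaks, with lists of equal length, these letters were in 3.74% of the Daxx-KO-alone and 3.50% of the Daxx-WT-alone peaks, against 5.27% and 3.42% with the full lists. Among distal peaks found in Daxx-WT LT-HSCs and not GMPs, 7.09% of Daxx-KO-alone peaks held the GATA letters. Shared peaks of the Daxx-KO list gave 8.58%. The pair was 3.42% and 2.34% in GMPs and not LT-HSCs, 2.24% and 3.03% in both, and 7.40% and 7.71% in neither. The intervals of each pair overlapped.

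The RUNX share was not tied to 1 course. In Daxx-KO-alone distal peaks it was 14.7% (12.6 to 17.2%) of those found in Daxx-WT LT-HSCs and not GMPs, 14.8% (11.8 to 18.4%) of those found in GMPs and not LT-HSCs, 9.57% (7.28 to 12.5%) of those in both and 19.98% (17.4 to 22.8%) of those in neither. Daxx-WT-alone peaks gave 10.2%, 8.92%, 7.60% and 11.1% for the same 4 courses. Shared peaks of the Daxx-KO list gave 13.4%, 12.4%, 9.89% and 17.7%, and in each course their interval overlapped that of the Daxx-KO-alone peaks.

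C/EBP letters, the TTGCNNAA bound by the C/EBP family of myeloid factors, were in 12.0% (11.5 to 12.5%) of distal Daxx-WT-alone, 10.1% (8.97 to 11.3%) of Daxx-KO-alone and 10.6% (10.3 to 10.99%) of shared peaks. Daxx-WT-alone peaks found in GMPs and not LT-HSCs held them in 18.01% and the Pu.1 letters in 12.6%, those found in LT-HSCs and not GMPs in 7.75% and 5.34%. The CTCF motif, of the protein that bounds chromatin loops, was less frequent in peaks alone, at 3.80% in Daxx-WT and 3.28% in Daxx-KO, than in shared peaks, at 5.22%. This was not seen among peaks found in both Daxx-WT LT-HSCs and GMPs. There it was in 7.1% of Daxx-WT-alone, 7.5% of Daxx-KO-alone and 7.3% of shared peaks of the Daxx-KO list. In LT-HSCs and not GMPs the 3 shares were 6.53%, 3.77% and 4.76%. In GMPs and not LT-HSCs they were 1.17%, 1.14% and 0.65%, and in neither 1.70%, 1.41% and 1.39%. The AP-1 letters TGANTCA (8.99%, 8.28% and 8.56% in Daxx-WT-alone, Daxx-KO-alone and shared peaks), the interferon response element ISRE (3.60%, 3.54% and 3.58%) and the promoter ETS letters CCGGAAGT (0.50%, 0.60% and 0.51%) had overlapping intervals. A match is a description of letters and not of binding.

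**Figure D3:**
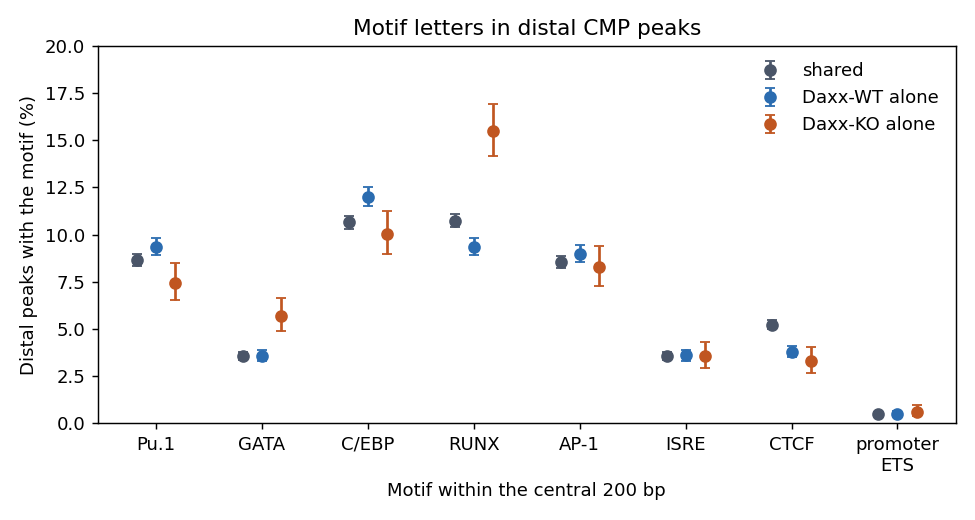
Percentage of distal CMP peaks with each motif in their central 200 bp (y axis) for 8 motifs (x axis), in shared peaks of the Daxx-WT list (grey), Daxx-WT-alone peaks (blue) and Daxx-KO-alone peaks (orange), with 95% Wilson intervals. The RUNX letters stand at 15.5% in Daxx-KO-alone peaks against 9.33% and 10.7% in the other classes.

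Genes were described through the peaks for which they had the nearest protein-coding start. Among 18 gene lists, the share of Daxx-WT peaks alone was highest around genes of late neutrophils, the liver and erythroid cells, and lowest around interferon-stimulated and T and NK cell genes. Of 16480 genes with a Daxx-WT peak, 54.4% had at least 1 that was alone, and of 15732 with a Daxx-KO peak, 16.4% had at least 1 alone. All Daxx-WT peaks were alone at 5.95% of those 16480 genes.

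Erythroid genes held 52 of 134 Daxx-WT peaks alone, 38.8% (31.0 to 47.3%), and 9 of 90 Daxx-KO peaks alone. The 28.5% of all Daxx-WT peaks lay below that interval. The interval holds the 34.5% of distal Daxx-WT peaks, and peaks at a like distance from start sites were not compared. With lists of equal length 33.3% of their Daxx-WT peaks were alone, against 20.4% of all peaks, and among peaks wider than the median 25.4% against 13.8%. In GMPs the same genes had 32.5% of Daxx-WT peaks alone and in LT-HSCs 8.15%, against 27.6% and 6.78% of all peaks there. Zfpm1, which encodes the GATA1 cofactor Fog1, had 9 of 20 Daxx-WT peaks alone beside 3 of 14 Daxx-KO peaks. Bcl11a, the repressor of fetal globin genes, had 10 of 28. The start sites of Aqp1 and Car1 lay under a Daxx-WT peak alone. All peaks of Gata1, Klf1 and Epor, the master factors and the erythropoietin receptor of this lineage, were shared. These 3 genes had only 2, 1 and 1 Daxx-WT peaks, too few to set against the share of all peaks.

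Megakaryocyte genes stood at the background, with 35 of 120 Daxx-WT peaks alone, 29.2% (21.8 to 37.8%), and 6 of 92 Daxx-KO peaks. Thbs1, for thrombospondin, had 6 of 21 alone, and Rab27b, for a granule transport protein, 5 of 8. Vwf, which encodes von Willebrand factor, had 4 of 10 Daxx-WT and 2 of 8 Daxx-KO peaks alone. The 3 peaks of Itga2b, which encodes CD41, were shared.

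Fate factors of the granulocyte and monocyte branch had many peaks and a share near the background, 113 of 360, 31.4% (26.8 to 36.4%), in Daxx-WT and 23 of 273, 8.42%, in Daxx-KO. Zeb2, a repressor in monocyte and dendritic cell development, had 15 of 30 Daxx-WT peaks alone. Runx1 had 13 of 39, Maf 13 of 38 and Id2, an inhibitor of E proteins, 10 of 44. Irf8, which directs monocyte and dendritic cell fate, had 5 of 15 Daxx-WT peaks and 0 of 10 Daxx-KO peaks alone. Cebpa, required for the step from CMP to GMP, had 3 of 7 Daxx-WT and 1 of 5 Daxx-KO peaks alone, and the 3 Daxx-WT peaks of Cebpe were shared.

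Spi1, which encodes Pu.1, had 7 Daxx-WT peaks, 3 of them alone, and 5 Daxx-KO peaks, 1 of them alone. The Daxx-WT-alone peaks lay 3499 bp upstream of its start (chr2:91078287-91078891) and in introns 2114 bp and 3971 bp downstream. The Daxx-KO-alone peak lay 967 bp upstream, at chr2:91081142-91081423, and was also listed in GMPs of both genotypes. The peak 3499 bp upstream was listed in LT-HSCs of both genotypes and in neither GMP list. The start site itself was covered in both CMP lists.

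Primary granule genes, whose products fill the first granules of neutrophil precursors, had 25 of 72 Daxx-WT peaks alone, 34.7% (24.8 to 46.2%), and 0 of 47 Daxx-KO peaks, which allows a share of up to 6.38% by the limit of 3 counts and 7.56% by the Wilson interval. Ctsc, which encodes the protease that activates the granule enzymes, had 9 of 16 alone, Prtn3 (proteinase 3) 2 of 3 and Igsf6 3 of 4. Mpo kept 4 of 5 and Elane both of its peaks. Late neutrophil genes had 20 of 45 alone, 44.4% (30.9 to 58.8%). That interval holds the 34.5% of distal Daxx-WT peaks, and 13 of the 18 late neutrophil genes had no start-site peak. S100a8, for a calcium-binding alarmin, had 3 Daxx-WT peaks, all alone, and none in Daxx-KO. These peaks lay at chr3:90664265-90664553, chr3:90667066-90667532 and, over the start site, chr3:90668775-90669506. The nearby S100a9 had 3 Daxx-WT peaks, 2 alone, and 2 Daxx-KO peaks, 1 alone. Cybb, a subunit of the NADPH oxidase, had 3 of 4 alone and the chemokine receptor gene Cxcr2 3 of 6, while all 5 peaks of Itgam were shared. In GMPs the late neutrophil genes had 27.9% of Daxx-WT peaks alone, close to the 27.6% of all GMP peaks.

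Genes of monocytes and dendritic cells had 47 of 155 Daxx-WT peaks alone, 30.3%, and 9 of 118 Daxx-KO peaks. F13a1 (coagulation factor XIIIa) had 6 of 13 alone and Tcf4, a factor of plasmacytoid dendritic cells, 10 of 30. The start sites of F13a1, Csf1r, Cd14, Itgax and Tlr7 lay under a Daxx-WT peak and no Daxx-KO peak, 5 of the 16 genes of this list with a start-site peak in either list. Over all 14039 genes with a start-site peak in either list, 6.12% were covered in Daxx-WT alone and 1.15% in Daxx-KO alone. Mast cell, basophil and eosinophil genes had 20 of 61 alone, 32.8%, and their start sites at Epx, Gzmb and Siglecf were covered in Daxx-WT alone. Mitf, the factor of mast cell fate, had 7 of 17 alone.

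Stem cell regulators stood at 60 of 196, 30.6% (24.6 to 37.4%), and 12 of 149 in Daxx-KO, 8.05%. Meis1 had 8 of 21 Daxx-WT peaks alone, Mecom 7 of 15 and Lmo2 6 of 13. Tal1 had 3 of 7 and Gata2 1 of 6 alone. The start sites of Hoxa5, Procr and Tek were covered in Daxx-WT alone, and the 5 peaks of Hlf were shared. Kit, which marks the sorted cells, had 6 of 14 Daxx-WT peaks alone and 0 of 8 Daxx-KO peaks. They included intronic peaks 48746 bp and 58367 bp downstream of its start that were in none of the LT-HSC and GMP lists. The list of sort markers as a whole had 24 of 80 alone, 30.0%, and cytokine receptors had 45 of 171, 26.3%, with 9 of 27 at Tgfbr2 and 6 of 25 at Cxcr4. All peaks of Flt3 and Il1r1 were shared.

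Lymphoid genes had shares of Daxx-WT peaks alone below that of all peaks, but with intervals that hold the 28.5% of all Daxx-WT peaks. Their shares of Daxx-KO peaks alone were above that of all peaks, which was also so in most other lists. B cell genes had 36 of 137 Daxx-WT peaks alone, 26.3% (19.6 to 34.2%), and 12 of 109 Daxx-KO peaks alone, 11.01% (6.41 to 18.3%), against 6.26% of all Daxx-KO peaks. T and NK cell genes had 28 of 133, 21.1% (14.99 to 28.7%), and 11 of 115, 9.57% (5.42 to 16.3%), an interval that holds the share of all Daxx-KO peaks. The Daxx-KO share was 10.3% for late neutrophil genes (3 of 29), 12.5% for neuron genes, 9.52% for sort markers (6 of 63), 9.35% for cytokine receptors (13 of 139) and 8.89% for mast cell, basophil and eosinophil genes (4 of 45). For B cell genes the excess was not seen among Daxx-KO peaks wider than the list's median, 2.08% alone against 2.48% of all such peaks, nor with lists of equal length, 20.2% against 19.8%. In LT-HSCs these lists had 18.95% and 12.99% of Daxx-KO peaks alone, with 13.9% over all peaks there. In GMPs they had 5.15% and 3.70%, with 4.55% over all peaks.

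Ebf1, the factor that commits cells to the B lineage, had 6 Daxx-WT peaks, 1 alone, and 9 Daxx-KO peaks, 4 alone. Of those 4, the intronic peaks at chr11:44624554-44625012 and chr11:44881090-44881739 were also listed in Daxx-KO LT-HSCs and in no other of the 4 lists. Lef1, a T cell and progenitor factor of the Wnt pathway, had 8 Daxx-WT peaks, 3 alone, and 9 Daxx-KO peaks, 4 alone. Of the latter 4, 3 were listed in LT-HSCs of both genotypes and in no GMP list. Of 14039 genes with a start-site peak, Rag1, Ikzf3 and Prf1 were the lymphoid list members covered in Daxx-KO CMPs alone. The Rag1 peak (chr2:101649377-101649811) covers the start of the recombinase gene, lies as close to a start of its neighbour B230118H07Rik and was counted under that gene. Of the 10 lists used, 1 other covers the Rag1 start, that of Daxx-KO KLS cells. The start sites of Cd22, Igll1, Cd2 and Klrb1c were covered in Daxx-WT alone.

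**Figure D4:**
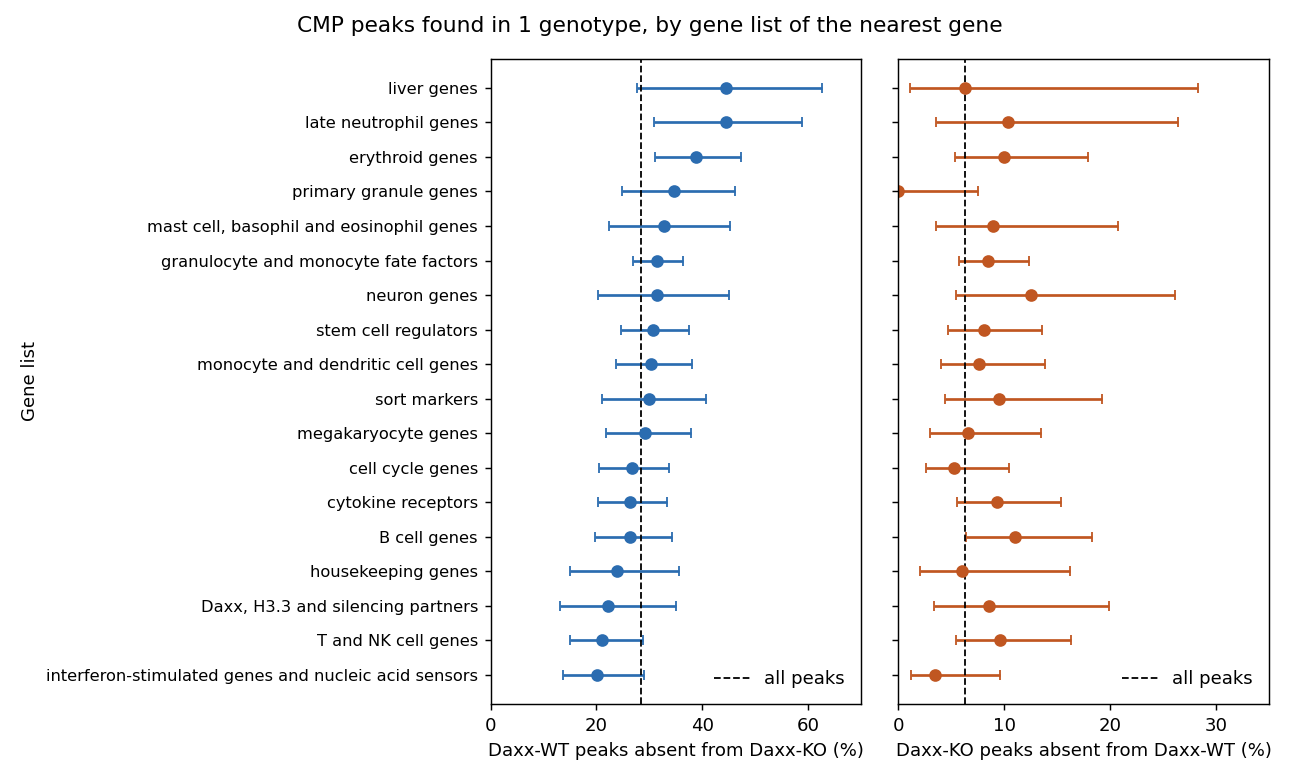
Percentage of peaks absent from the other genotype (x axes) among peaks nearest the genes of 18 lists (y axis), for the Daxx-WT list (left, blue) and the Daxx-KO list (right, orange), with 95% Wilson intervals and a dashed line at the share of all peaks, 28.5% and 6.26%. Most intervals cross the line, and those of erythroid and late neutrophil genes on the left and B cell genes on the right lie above it. The intervals of erythroid and late neutrophil genes hold the 34.5% of distal Daxx-WT peaks.

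Interferon-stimulated genes and nucleic acid sensors had 21 of 104 Daxx-WT peaks alone, 20.2% (13.6 to 28.9%), and 3 of 88 Daxx-KO peaks, 3.41% (1.17 to 9.55%). Both intervals hold the share of all peaks. Tbk1, a kinase downstream of the sensors, had 5 of 9 alone, and Ifi44 3 of 4. The 4 Daxx-WT peaks each of Ifih1, the sensor MDA5, and of Irf7 were shared. In GMPs this list had 15.2% and in LT-HSCs 5.71% of Daxx-WT peaks alone, against 27.6% and 6.78% of all peaks there. With CMP lists of equal length 8.86% of its Daxx-WT peaks were alone, against 20.4% of all peaks. Among Daxx-WT CMP peaks wider than the median 0% were alone, against 13.8%. Genes for Daxx, H3.3 and silencing partners had 12 of 54, 22.2%, and 4 of 47. Cabin1, a subunit of the HIRA complex that also deposits H3.3, had 3 of 5 alone, and all 4 peaks of Pml, the scaffold of nuclear bodies that hold Daxx, were shared.

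Cell cycle genes had 45 of 169 alone, 26.6%, and 7 of 133 in Daxx-KO. Myc, a driver of growth, had 6 of 21 Daxx-WT peaks and 4 of 19 Daxx-KO peaks alone. The 4 Daxx-KO-alone peaks lay between 117147 and 190264 bp downstream of its start, and Cdkn1c, a cell cycle inhibitor of stem cells, had 6 of 11 Daxx-WT peaks alone. Housekeeping genes had 15 of 63, 23.8%, and 3 of 50. Among genes of tissues absent from the sort, liver genes had 12 of 27 alone, 44.4% (27.6 to 62.7%), and 1 of 16, and neuron genes 16 of 51, 31.4%, and 5 of 40. The shares of Daxx-WT peaks alone at liver and neuron genes thus lay within the range of the granulocyte and monocyte lists, 30.3 to 44.4%.

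Among single genes, Pde4d, a cyclic AMP phosphodiesterase gene, had the most Daxx-WT peaks alone, 29 of 75, followed by Jarid2, a partner of Polycomb complex PRC2, with 18 of 39, and the forkhead factor Foxp1 with 18 of 41. Rybp, a subunit of Polycomb complex PRC1, had 17 of 30 and Elmo1, for a regulator of Rac, 17 of 37. Ahr, the aryl hydrocarbon receptor gene, had 16 of 22 alone and kept 6. Rybp, Ahr, Bcl2l11, Nav2, Runx2 and Plcl1 had no Daxx-KO peak alone, like most genes. Only 16.4% of the 15732 genes with a Daxx-KO peak had at least 1 alone. The ranking is by count and not by share, and 28.5% of all Daxx-WT peaks were alone. Bcl2l11, which encodes the death factor Bim, had 15 of 34 and Runx2 14 of 27. The remaining genes of the leading 15 had between 13 and 16 peaks alone.

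The genes with the most Daxx-KO peaks alone were Adam6a, with 11 of 21, and Zfp386, with 9 of 52. Adam6a lies inside the immunoglobulin heavy chain locus and Zfp386 borders it, and the segments of the locus are not among the protein-coding starts. Dad1, with 5 of 21, borders the T cell receptor alpha and delta locus. Foxp1 and Tbl1xr1 had 6 each, Sorcs2 had 5 of 13, and 5530401A14Rik, with 1 Daxx-WT peak that was alone, had 4 Daxx-KO peaks that were all alone.

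**Figure D5:**
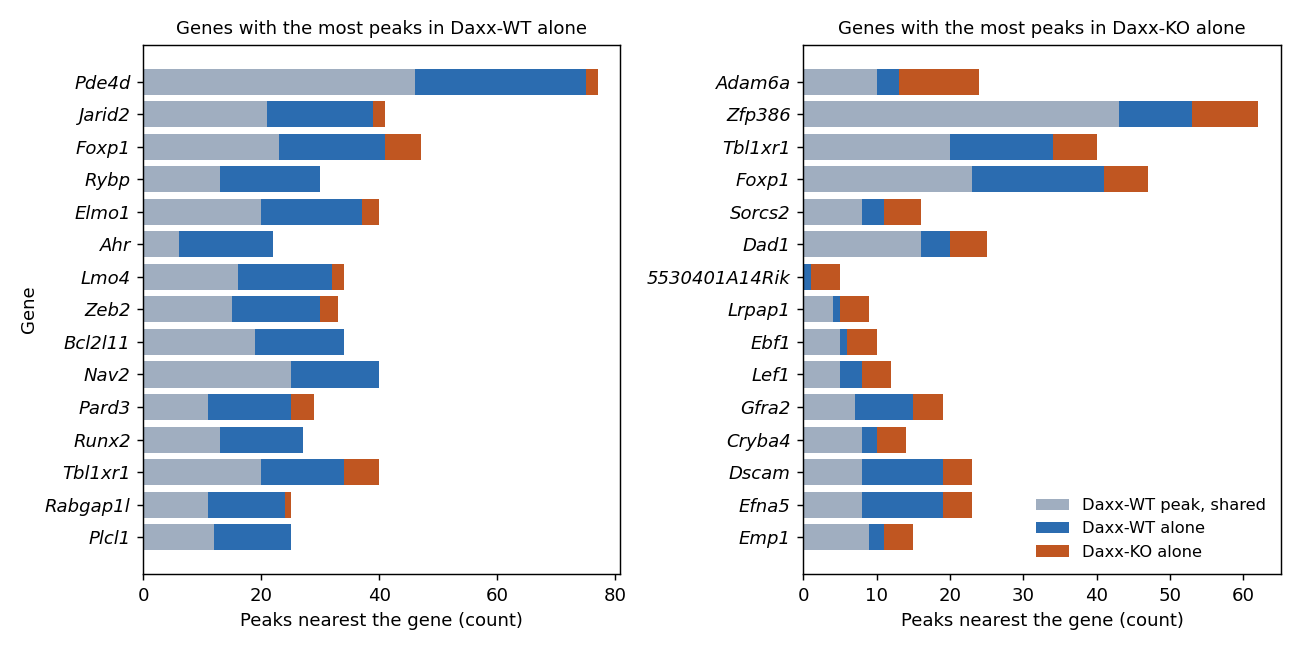
Number of peaks nearest each gene (x axis) for the 15 genes with the most peaks in Daxx-WT CMPs alone (left) and in Daxx-KO CMPs alone (right), split into shared Daxx-WT peaks (grey), Daxx-WT-alone (blue) and Daxx-KO-alone peaks (orange). Pde4d leads on the left with 29 and Adam6a on the right with 11.

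The receptor loci were therefore counted as a whole, which was decided after the data were seen. The Igh locus (chr12:113254830-116010093) held 70 Daxx-WT CMP peaks, 13 alone, and 77 Daxx-KO CMP peaks, 20 alone, although the whole Daxx-KO list was the shorter. Over all CMP peaks 28.5% were alone in Daxx-WT and 6.26% in Daxx-KO. Daxx-KO peaks were also the more numerous there in LT-HSCs, 49 against 34, and in KLS cells, 80 against 37, and the fewer in GMPs, 61 against 81. The whole Daxx-KO list was the longer in LT-HSCs and KLS cells and the shorter in GMPs. The Tcra and Tcrd locus likewise had 79 against 66 in LT-HSCs and 36 against 16 in KLS cells. The Tcra and Tcrd locus held 33 Daxx-WT and 31 Daxx-KO CMP peaks, with 10 and 8 alone. The Tcrb locus held 25 and 17, with 10 and 2 alone. Between the 3 larger loci, Igh was thus the 1 with more peaks in Daxx-KO CMPs. Some segments of these loci resemble one another, and whether reads were split among them was not tested.

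The widest peaks alone mostly lay at start sites and were listed in LT-HSCs too. The widest in Daxx-WT alone was a 3675 bp intronic peak 17982 bp upstream of Kcnc4, a potassium channel gene, and the next 4 lay over starts of Spaca6, C1ql3, Rbpms2 and Zfp462, at 2403 to 2929 bp. The widest in Daxx-KO alone was a 2302 bp peak over the start of Dll1, which encodes a Notch ligand, followed by peaks at Cnksr2, Mtmr11, Zfp827 and Slc30a2, at 2022 to 2258 bp. Of these 10 peaks 9 were listed in LT-HSCs of both genotypes, the exception being that of Kcnc4.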

How the data were processed

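The authors deposited peak lists of sorted cells as positions (chromosome, start, end), 1 list per group, pooled over its libraries; the KLS and LT-HSC 3 d.p.i. lists also hold the deposited fold enrichment, a linear ratio. The submitters' processing notes name mm10, CASAVA 1.8.4, cutadapt 1.13, STAR 2.5.3 and bedtools. The peak caller and threshold of the CMP lists are not given in the sources used here. Tables of the authors' own differential sites and the double knockout KLS list were not used.

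Overlaps (at least 1 bp), distances and motif matches were computed in Python 3.11.15 with pandas 2.3.3, NumPy 2.4.6 and pysam 0.24.0, tested on simulated lists and checked against bedtools 2.31.1. Genes are from GENCODE release M21 on GRCm38. A peak was assigned to the nearest protein-coding start from its edge, and distal means over 1000 bp from every transcript start. Of the 370 entries in 18 gene lists, 368 were annotated. Named genes were the 15 with most peaks alone per genotype, up to 4 with most peaks alone and up to 2 with all of 3 or more peaks shared per list, Daxx, Spi1, sort markers and the 5 widest peaks alone. Genes outside that rule, among them Irf8, Cebpa, Gata1, Gata2, Tal1, Klf1, Epor, Mpo, Elane and those with a start site covered in 1 genotype, were added after their values were seen. Members and lists were chosen with earlier results of these data known. Alternatives are given at the end. Some genes that the rule names are not reported here.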

Additional observations from a re-analysis of the deposited data

How the results depend on the processing

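The 18832 peaks in Daxx-WT CMPs alone, the 3167 in Daxx-KO CMPs alone and their log2 ratio of -2.57 (Daxx-KO over Daxx-WT) stayed within 1.5 times, or within counting error for the ratio, when 50% of the peak had to be covered, when a peak within 500 bp counted as shared, when peaks up to 200 bp apart were merged, and on autosomes only. With only peaks wider than their list's median, 4545 and 626 were alone, a log2 ratio of -2.86. With lists of equal length, by width, 10312 and 10036 were alone, a log2 ratio of -0.039. Of 2302 values recomputed over all settings, 1766 stayed the same within their counting interval or within 1.5 times and 536 moved. Of those that moved, 210 did so with the wider peaks and 170 with equal lengths; their cause was not tested. No paired analysis was possible because each list pools its libraries and no result comes from a test; for the same reason no library could be left out. The lists carry no depth, so a peak absent from a list was not shown to be closed.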
